A study of Mus musculus with 6 samples.

Results

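The sphingosine phosphate pathway was described here through 10 genes: the kinases Sphk1 and Sphk2, the phosphatases Sgpp1 and Sgpp2, the lyase Sgpl1 and the receptors S1pr1 to S1pr5. Open chromatin at these genes was read by ATAC-seq, an assay that uses the transposase Tn5 to cut and tag accessible DNA. A peak belonged to a gene when the deposited table named that gene as having the nearest transcription start site. This gave 113 of the table's 109859 peaks, and 9 of the 10 genes had at least 1 peak among the 19013 genes with any. The peaks were spread unevenly, with 39 at S1pr1, 23 at S1pr3, 15 at Sgpp1, 11 at Sphk1, 9 at Sgpl1, 6 at S1pr4, 4 at Sphk2 and 3 each at S1pr2 and S1pr5. No peak was annotated to Sgpp2.

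The libraries came from 3 Mel18 knockout mice (Mel18 KO, a conditional knockout in the hematopoietic system) and 3 wildtype mice (WT). Mel18, also called Pcgf2, is a subunit of Polycomb repressive complex 1. All 6 libraries were made from sorted lineage-negative (Lin-) bone marrow cells, a mixture of stem and progenitor cells depleted of mature blood cells. For Cre driver, strain, age and sex the sources used here state nothing, and no peak was annotated to Pcgf2, so the deletion itself was not checked.

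The set of genes was chosen from measured values of these same libraries: it was proposed around a known difference between Mel18 KO and WT at a peak upstream of Sgpp1. The values of Sgpp1 between genotypes are therefore given as a description with no test. The remaining members were listed by function, with earlier results of these data known. Their tests below were adjusted over all peaks or all genes of the table, which does not correct for that choice.

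Sphingosine 1-phosphate is a lipid messenger made inside cells from sphingosine by the sphingosine kinases. The phosphatases return it to sphingosine, and the lyase splits it irreversibly. Exported lipid is plentiful in blood and lymph and scarce in tissues, and cells read this difference through 5 G protein-coupled receptors. In bone marrow the receptor S1pr1 is known for guiding progenitors and lymphocytes out into the blood.

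The start-site windows of 6 of the genes are shown because they hold the extremes of the set: strongly open starts (Sphk2 and Sgpl1), starts of the 3 genes whose peaks are described at most length below (Sgpp1, S1pr3 and S1pr4), and the gene without any peak (Sgpp2). Each runs 5′ to 3′ on the gene's strand, from 250 bases before to 50 bases after a RefSeq start (build GRCm38.p6). Capitals mark matches on either strand to the ETS motif CCGGAA, the SP and KLF motif GGGCGG, the NF-Y motif CCAAT, the GATA motif AGATAA, the RUNX motif TGTGGT, the AP-1 motif TGANTCA and the E-box CACGTG.
Sphk2, chr7:45715158-45715457, minus strand: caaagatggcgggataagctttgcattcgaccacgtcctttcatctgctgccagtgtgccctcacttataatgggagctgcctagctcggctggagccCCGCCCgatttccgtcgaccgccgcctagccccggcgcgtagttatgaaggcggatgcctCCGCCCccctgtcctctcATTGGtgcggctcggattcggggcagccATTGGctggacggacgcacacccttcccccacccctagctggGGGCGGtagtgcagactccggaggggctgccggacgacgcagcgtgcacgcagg
Sgpl1, chr10:61147635-61147934, minus strand: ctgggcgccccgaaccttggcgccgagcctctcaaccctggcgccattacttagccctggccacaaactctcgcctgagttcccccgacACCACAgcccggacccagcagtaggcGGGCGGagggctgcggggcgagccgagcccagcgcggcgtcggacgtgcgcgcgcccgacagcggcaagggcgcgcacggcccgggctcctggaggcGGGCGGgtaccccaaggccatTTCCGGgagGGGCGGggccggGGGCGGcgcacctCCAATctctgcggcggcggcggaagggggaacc
Sgpp1, chr12:75735680-75735979, minus strand: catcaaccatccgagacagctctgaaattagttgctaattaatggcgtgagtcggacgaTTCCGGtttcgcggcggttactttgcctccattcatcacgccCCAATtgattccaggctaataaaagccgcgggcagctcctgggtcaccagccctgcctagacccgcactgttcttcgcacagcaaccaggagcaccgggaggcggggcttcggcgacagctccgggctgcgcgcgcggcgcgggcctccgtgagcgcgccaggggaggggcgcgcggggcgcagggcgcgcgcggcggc
Sgpp2, chr1:78310096-78310395, plus strand: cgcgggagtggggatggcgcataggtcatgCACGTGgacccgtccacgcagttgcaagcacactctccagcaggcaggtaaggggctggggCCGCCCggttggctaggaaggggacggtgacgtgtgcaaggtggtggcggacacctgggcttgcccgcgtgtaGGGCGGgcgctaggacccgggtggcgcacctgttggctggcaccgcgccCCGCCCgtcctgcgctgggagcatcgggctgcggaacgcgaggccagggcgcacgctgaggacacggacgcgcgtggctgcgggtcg
S1pr3, chr13:51408368-51408667, plus strand: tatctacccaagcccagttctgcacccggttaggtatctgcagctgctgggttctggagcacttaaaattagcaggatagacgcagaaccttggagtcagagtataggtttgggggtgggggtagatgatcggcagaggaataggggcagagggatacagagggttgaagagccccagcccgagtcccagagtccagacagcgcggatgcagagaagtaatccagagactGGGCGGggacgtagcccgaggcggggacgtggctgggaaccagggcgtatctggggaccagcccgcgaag
S1pr4, chr10:81500088-81500387, minus strand: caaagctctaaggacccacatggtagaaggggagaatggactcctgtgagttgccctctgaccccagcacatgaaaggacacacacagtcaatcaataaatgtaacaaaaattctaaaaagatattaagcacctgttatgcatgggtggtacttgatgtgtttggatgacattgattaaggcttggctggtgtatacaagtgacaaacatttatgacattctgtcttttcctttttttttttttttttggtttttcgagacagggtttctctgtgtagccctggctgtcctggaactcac

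The windows differed in base composition. That of Sgpl1 had 75.3% G and C, that of Sgpp2 72.0%, that of Sgpp1 66.0%, the Sphk2 window shown 65.3%, that of S1pr3 59.0% and that of S1pr4 41.0%, against a median of 52.7% over 32851 RefSeq windows of mouse genes. The Sgpp1 window held 36 CpG dinucleotides, 1.10 times the number its base composition gives, and the S1pr4 window held 1, or 0.0797 times. Of all windows, 35.7% held the SP and KLF motif, 37.4% the NF-Y motif, 16.8% the RUNX motif, 14.9% the ETS motif, 11.2% the GATA motif, 7.81% the AP-1 motif and 7.15% the E-box. The Sgpl1 window held the SP and KLF motif at 4 places, the S1pr3 window held it at 1, and the S1pr4 window held none of the motifs. In all, 14 windows of 9 members were found, with none for S1pr1. The longest overlaps with a member peak were at Sgpl1, where the peak covered all 300 bases, and at the Sphk2 window shown, with 297 bases. No member peak overlapped the windows of S1pr4 and Sgpp2, or the Sphk1 windows that begin at chr11:116530850, chr11:116531587 and chr11:116531661.

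Sgpp2, a sphingosine phosphatase like Sgpp1, had a GC-rich start and no peak in its whole RefSeq span (chr1:78309549-78420289). The nearest peak began 15842 bases beyond the span and was annotated to Farsb. For Sgpp2 the table thus gives no read count, and its level was not analysed here.

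Total reads in peaks were 16709921, 14487908 and 14797735 in Mel18 KO libraries 1 to 3 and 12000808, 12166259 and 13769335 in WT libraries 1 to 3. WT library 3 stood apart from the others. A chi-square per degree of freedom over all peaks was 8.16 and 9.09 between it and WT libraries 1 and 2, against 2.86 between those and 2.26 to 3.72 among the Mel18 KO libraries. Of the 8 stem and progenitor marker genes, all had a peak, and their summed level was 552 to 600 CPM (the reads of a peak scaled to the library's normalized total in peaks) in Mel18 KO libraries and 535 to 574 CPM in WT libraries. The markers of other cells were present too. All 10 T and NK cell markers had a peak, summing to 394 to 414 CPM in Mel18 KO and 445 to 529 CPM in WT. All 6 erythroid markers had a peak, summing to 139 to 193 CPM in Mel18 KO and 146 to 248 CPM in WT, with WT library 3 highest in both lists. All 5 macrophage markers (233 to 237 CPM in Mel18 KO, 163 to 268 CPM in WT) and all 6 neutrophil markers (233 to 273 CPM in Mel18 KO, 172 to 262 CPM in WT) had a peak, with WT library 3 lowest. All 6 B cell markers had a peak (49.1 to 63.1 CPM in Mel18 KO, 56.5 to 72.3 CPM in WT), as did 5 of 6 endothelial markers, all but Tie1 (195 to 197 CPM in Mel18 KO, 163 to 187 CPM in WT). In bulk libraries a changed share of a cell type and a changed accessibility per cell cannot be told apart.

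No member outside Sgpp1 passed an adjusted p of 0.05 in edgeR's quasi-likelihood test. With reads summed over all peaks of a gene, 0 of the 8 tested members passed, as did 0% of the 19013 genes. At an unadjusted p under 0.05, S1pr3 was higher and S1pr4 lower in Mel18 KO, where 4.39% of all genes were higher and 6.71% lower. Of single peaks, 0 of the 98 outside Sgpp1 passed the adjusted threshold, as did 0% of all peaks, and the smallest adjusted p was 0.111. At an unadjusted p under 0.05, 4 of the 98 were higher and 6 lower in Mel18 KO, against 3.10% of all peaks higher and 5.97% lower. The 3 libraries of each genotype did not overlap at 8 higher and 6 lower peaks of the 98, against 7.63% of all peaks higher and 8.01% lower. In the authors' deposited table, 0 of the 98 member peaks outside Sgpp1 and 3 of all peaks had an adjusted p under 0.05. These shares lay near those of all peaks. Without WT library 3, 4 of the 98 peaks had an adjusted p under 0.05: S1pr4 at -10346 bp, Sgpl1 at 24031 bp, Sphk2 at -148 bp and S1pr1 at 73469 bp. Over all peaks, 3013 passed in that fit.

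Over all 113 peaks, 59 log2 fold changes (Mel18 KO over WT) were above 0 and 54 below, with a median of 0.03, against 0.02 over all peaks. The 19 member peaks within 1 kb of a start site had a median of -0.14, with 15 below 0, and all promoter peaks of the table had a median of -0.15. The 94 farther peaks had a median of 0.10, with 55 above 0, against 0.06 over all such peaks. Without WT library 3 the member promoter peaks had a median of 0.05, with 10 above 0 and 9 below, against -0.08 over all promoter peaks, and the farther member peaks had a median of 0.14 against 0.05. With all libraries the members lay close to the table's own medians, and without WT library 3 the median of their promoter peaks turned.

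**Figure D1:**
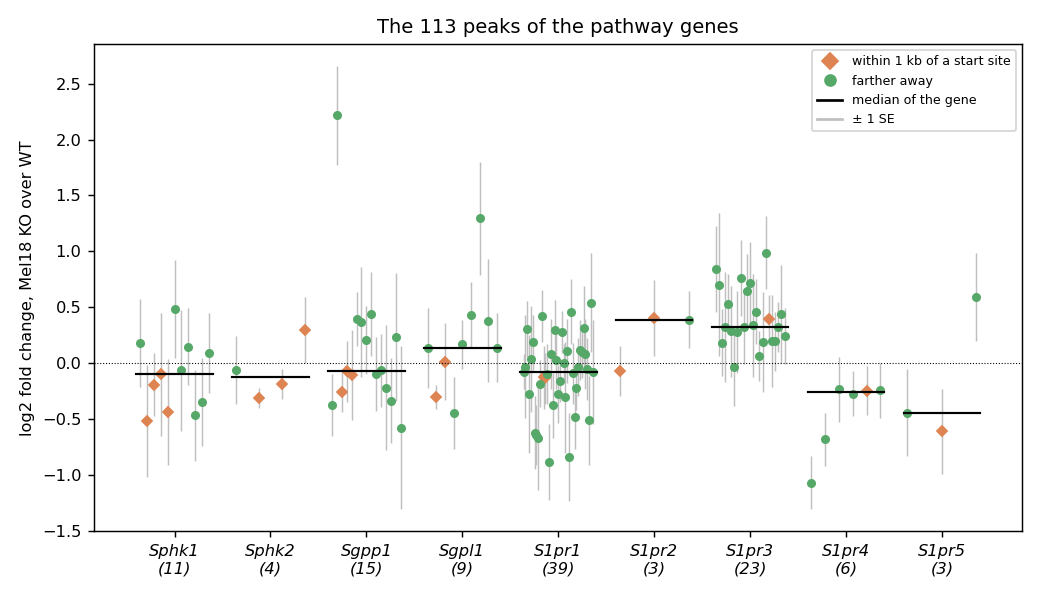
Log2 fold change (Mel18 KO over WT, vertical axis) of each of the 113 member peaks, by gene and, within a gene, by position along the distance to the start site. Points carry ± 1 SE, black lines are the medians per gene, and numbers in brackets count peaks. The S1pr3 peaks lie above 0 but for 1, the 6 S1pr4 peaks lie below 0, and 1 Sgpp1 peak stands at 2.22.

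Levels were compared between genes as CPM per kb of peak, from reads summed over all peaks of a gene. Sphk2 was the most open, with 110 CPM per kb in Mel18 KO and 121 in WT. Sgpl1 and S1pr4 came next in WT, with 35.6 and 28.6 in Mel18 KO and 36.9 and 37.6 in WT. S1pr1 (28.6 in Mel18 KO, 28.2 in WT), S1pr2 (28.1 in Mel18 KO, 23.6 in WT), Sphk1 (24.8 in Mel18 KO, 26.9 in WT) and Sgpp1 (20.8 in Mel18 KO, 19.9 in WT) followed. S1pr3 (21.0 in Mel18 KO, 15.7 in WT) and S1pr5 (15.9 in Mel18 KO, 15.8 in WT) were the least open in WT. The gap between Sphk2 and the rest exceeded the spread of the libraries. Over the 6 libraries together, each later gene overlapped its neighbour in this order. Within WT alone, S1pr4 (35.6 to 39.1) lay above S1pr1 (25.2 to 32.3). Within Mel18 KO alone, Sgpl1 (31.8 to 38.5) lay above S1pr4 (25.8 to 31.7), and S1pr3 (19.85 to 22.5) above S1pr5 (13.8 to 17.5). These sums mix promoter and farther peaks in unlike shares, and the order was not corrected for this. Within 1 kb of a start lay 3 of 4 peaks at Sphk2, 2 of 39 at S1pr1 and 1 of 23 at S1pr3. Over the whole table the median level was 9.22 CPM for promoter peaks and 3.16 CPM for farther peaks. The Sphk2 sum also holds the peak at -33 bp, which overlapped the start of Rpl18 too.

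**Figure D2:**
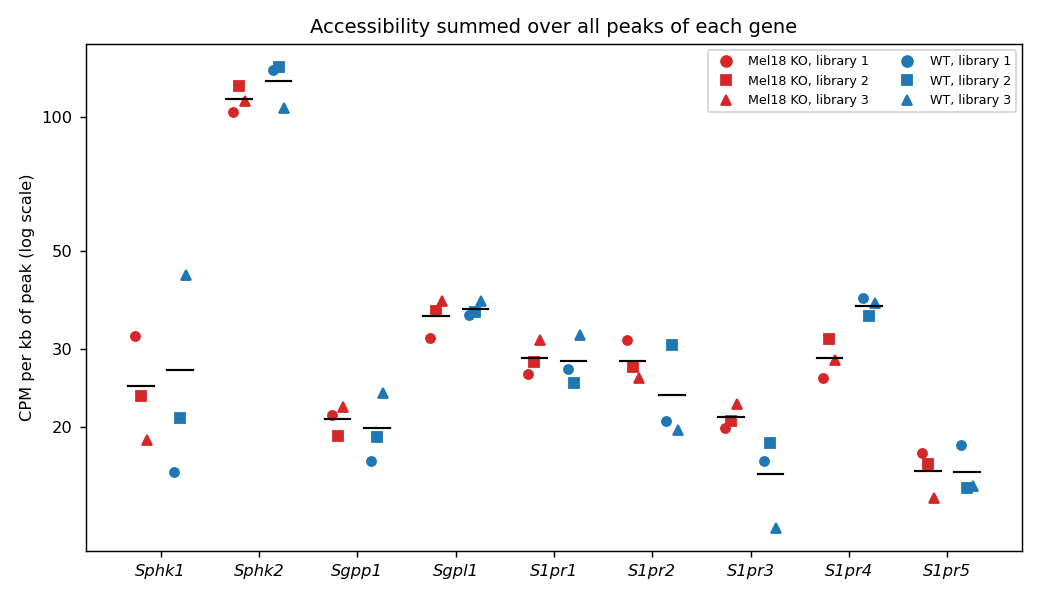
Accessibility per gene in CPM per kb of peak (log axis), with 1 point per library, Mel18 KO in red on the left and WT in blue on the right of each gene; black lines are means of 3 libraries. Sphk2 lies above 100 in every library, S1pr3 and S1pr4 are the genes whose genotypes do not overlap, and Sphk1 spreads most.

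Among the kinases, Sphk1, the inducible cytosolic kinase, varied more between mice of the same genotype than any other member. Its summed level was 59.1, 43.3 and 34.5 CPM in Mel18 KO libraries and 29.1, 38.6 and 81.2 CPM in WT libraries. The coefficient of variation was 27.4% in Mel18 KO and 55.9% in WT, the genotypes overlapped, and the highest and the lowest value were both WT. The log2 fold change was -0.12 ± 0.35 (SE; edgeR adjusted p = 0.925), and it turned to 0.43 without WT library 3. Of its 11 peaks, 9 were highest in that library. The erythroid marker sum ran in the same order within each genotype, with 193, 167 and 139 CPM in Mel18 KO libraries 1 to 3 and 146, 161 and 248 CPM in WT libraries 1 to 3. Red cells are known as a main store of sphingosine 1-phosphate in blood; the part of erythroid cells in the Sphk1 values was not tested.

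Its strongest promoter peak, in an intron of Sphk1 at -331 bp (chr11:116534292-116534525), had 13.4, 9.70 and 8.04 CPM in Mel18 KO and 8.41, 10.7 and 16.5 CPM in WT. Its strongest peak farther away lay 14701 bp from the start in an intron of the neighbouring gene Ube2o (chr11:116549294-116549588), with 10.8, 8.38 and 5.53 CPM in Mel18 KO and 5.40, 8.98 and 17.0 CPM in WT. Both peaks ordered the libraries almost alike, with WT library 3 at the top. The peak with the smallest p, at 9282 bp and also within Ube2o, had 0.811, 0.726 and 0.900 CPM in Mel18 KO and 1.42, 0.855 and 1.12 CPM in WT, and its log2 fold change was -0.47 ± 0.40 (SE; edgeR adjusted p = 0.801). Of its 11 peaks, 5 lay within Ube2o, so the nearest start does not settle which gene they serve.

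Sphk2, the kinase found largely in the nucleus and at internal membranes, had its reads at its start sites. The strongest promoter peak, at -148 bp (chr7:45715161-45715549, overlapping the Sphk2 window printed above), had 56.3, 56.9 and 52.2 CPM in Mel18 KO and 70.9, 71.3 and 63.2 CPM in WT. The genotypes did not overlap, with Mel18 KO lower, as at 5160 of the table's 21889 promoter peaks. The log2 fold change was -0.31 ± 0.09 (SE; edgeR adjusted p = 0.237). It was -0.36 with an adjusted p of 0.0185 without WT library 3, and -0.08 under a normalization that follows the mean level of each peak (trended normalization). Another promoter peak at -33 bp, chosen after its values were seen, overlapped the starts of both Sphk2 and the ribosomal protein gene Rpl18, with 31.1, 39.6 and 37.4 CPM in Mel18 KO and 45.9, 41.4 and 35.9 CPM in WT, which overlapped. The strongest peak beyond 1 kb, at -1075 bp in an intron, had 9.27, 12.3 and 11.7 CPM in Mel18 KO and 14.3, 14.4 and 6.04 CPM in WT. Summed over its 4 peaks, Sphk2 had 110 ± 7.27 CPM in Mel18 KO and 121 ± 13.9 CPM in WT (SD, n = 3 each), and the log2 fold change was -0.14 ± 0.10 (SE; edgeR adjusted p = 0.623). In RefSeq each of these 4 peaks overlapped Rpl18 as well as Sphk2, so the nearest start does not settle which gene they serve.

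Among the enzymes that remove the lipid, Sgpp1, the phosphatase of the endoplasmic reticulum, held the peak around which the set was proposed. That peak lay 16503 bp upstream of its start (chr12:75752158-75752305). It counted 30, 30 and 21 reads in Mel18 KO libraries and 3, 5 and 5 reads in WT libraries, or 1.74, 1.98 and 1.35 CPM in Mel18 KO and 0.266, 0.428 and 0.373 CPM in WT. Every Mel18 KO library was above every WT library, by a fitted log2 fold change of 2.22 ± 0.44 (SE), which ranged from 2.03 to 2.35 over all the alternative settings tried. The authors' table placed it outside annotated genes, and in RefSeq it lay within the gene model Gm40447. The peak was weak: its WT values rest on 3 to 5 reads per library.

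The other 14 peaks of Sgpp1 had log2 fold changes from -0.58 to 0.44, with 5 above 0, 9 below and a median of -0.09. Without WT library 3 they had 9 above 0, 5 below and a median of 0.20. The promoter peak at 12 bp (chr12:75735553-75735880) had 15.0, 13.7 and 17.9 CPM in Mel18 KO and 17.5, 16.7 and 21.5 CPM in WT, which overlapped. The strongest peak beyond 1 kb, at 1405 bp in an intron, had 5.22, 4.62 and 4.57 CPM in Mel18 KO and 3.90, 3.17 and 3.88 CPM in WT, with Mel18 KO higher and no overlap. Summed over all 15 peaks, Sgpp1 had 54.9 ± 4.14 CPM in Mel18 KO and 52.4 ± 9.67 CPM in WT (SD, n = 3 each).

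Around the upstream peak, 32 other peaks lay within 100 kb, with 17 log2 fold changes above 0, 15 below, a median of 0.08 and a range from -0.58 to 0.88. The 2 nearest on the side of Sgpp1 were its promoter peak, 16278 bp away with a log2 fold change of -0.26, and an exonic peak 16651 bp away with -0.07. The 2 nearest on the other side were 20452 and 29237 bp away, with -0.38 and -0.27. None of these 4 peaks separated the genotypes. By the pattern over 6 libraries (log2 CPM centred on each peak's mean, smallest mean absolute difference among 101336 peaks of other genes), the most alike peaks included those in introns of Spred1 (0.225) and 4930565D16Rik (0.279). Their log2 fold changes were 1.55 and 1.63, a direction that follows from the choice by pattern.

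**Figure D3:**
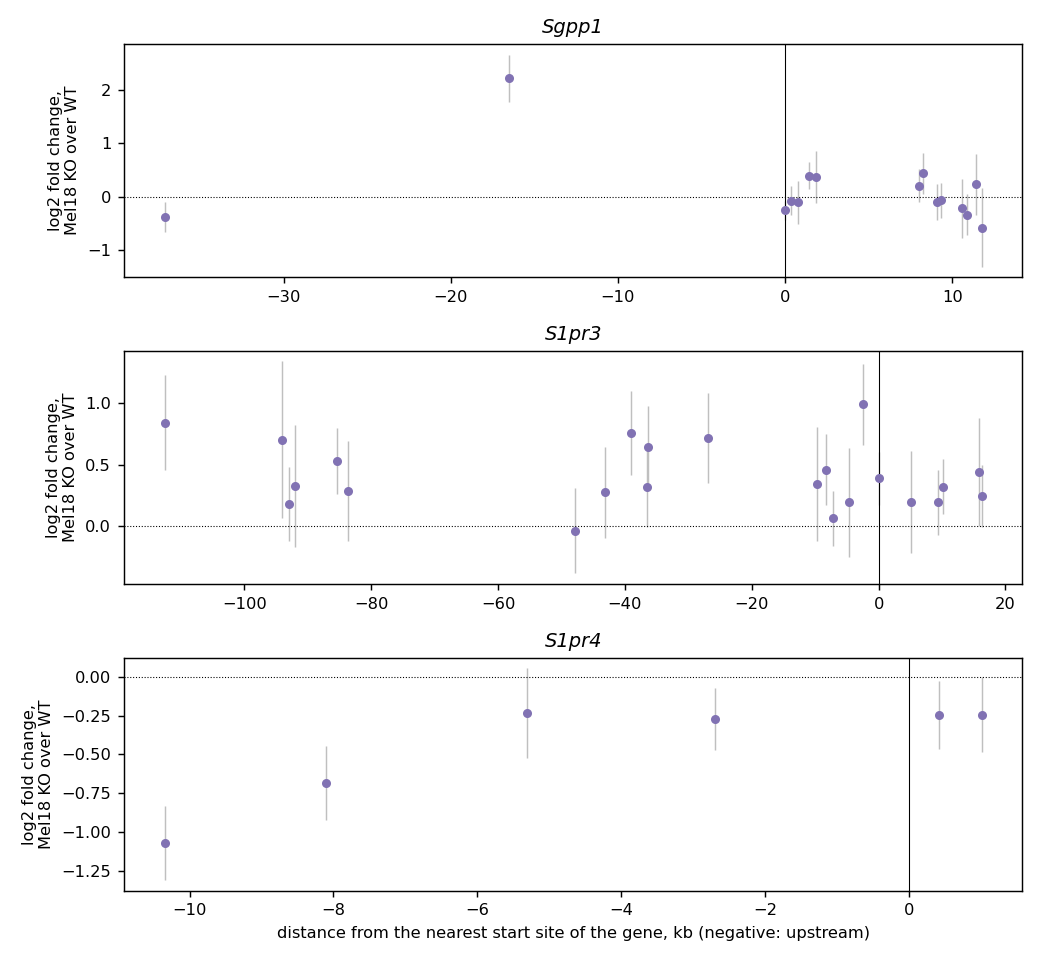
Log2 fold change (Mel18 KO over WT, vertical axes) of every peak of Sgpp1, S1pr3 and S1pr4 against its distance from the nearest start site of the gene in kb (horizontal axes, negative upstream). Points carry ± 1 SE. At Sgpp1 the single peak at -16503 bp stands at 2.22, at S1pr3 the values above 0 extend to -112578 bp, and at S1pr4 the lowest values are the farthest upstream.

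Sgpl1, the lyase that ends the pathway, was open at its start in every library. Its promoter peak at -30 bp (chr10:61147349-61148040), which covers the printed window, had 38.0, 43.8 and 48.4 CPM in Mel18 KO and 53.5, 51.2 and 55.8 CPM in WT. Mel18 KO was lower with no overlap, by a log2 fold change of -0.30 ± 0.11 (SE; edgeR adjusted p = 0.395), which was -0.10 under trended normalization. Of the table's 21889 promoter peaks, 5160 were likewise lower in Mel18 KO with no overlap. The strongest peak beyond 1 kb, at 1406 bp, had 6.72, 8.91 and 7.53 CPM in Mel18 KO and 6.82, 6.93 and 6.86 CPM in WT. An intronic peak at 24031 bp counted 50, 33 and 20 reads in Mel18 KO and 5, 6 and 21 reads in WT; its log2 fold change was 1.30 ± 0.50 (SE; edgeR adjusted p = 0.446) and 2.14 (adjusted p = 0.0202) without WT library 3. This peak was outside the naming rule and was chosen after its values were seen. Over its 9 peaks Sgpl1 had 70.3 ± 6.83 CPM in Mel18 KO and 72.8 ± 2.85 CPM in WT (SD, n = 3 each), and the log2 fold change was -0.05 ± 0.10 (SE; edgeR adjusted p = 0.880).

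**Figure D4:**
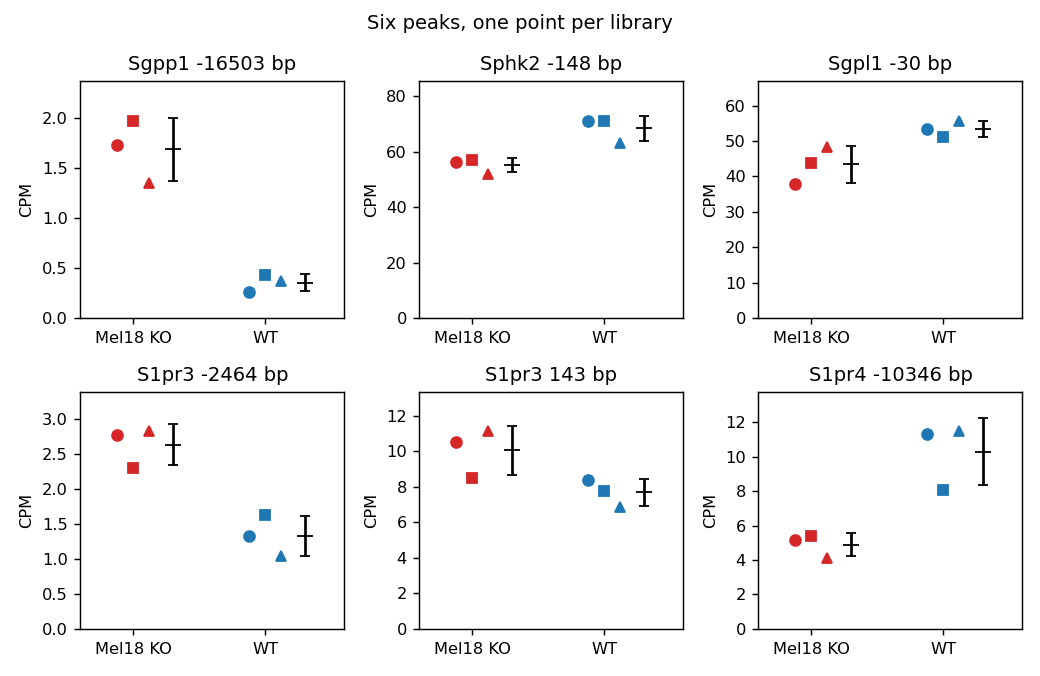
CPM (vertical axes, from 0) of 6 peaks named in the text, with Mel18 KO on the left and WT on the right. Circles, squares and triangles are libraries 1, 2 and 3 of a genotype, and bars are mean ± SD (n = 3). The 6 were picked from the named peaks, others of which overlapped between genotypes. At these 6 the genotypes do not overlap, with Sgpp1 and S1pr3 higher in Mel18 KO and Sphk2, Sgpl1 and S1pr4 lower. Of all peaks in the table, 7.63% were apart in the first direction and 8.01% in the other. Of the 21889 promoter peaks, 795 were apart in the first direction and 5160 in the other. The Sgpp1 peak is the one the set was chosen from.

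Among the receptors, S1pr1, the receptor for exit into the blood, had the most peaks, from 84582 bp upstream to 184945 bp downstream of its start. Its summed level was 247, 262 and 295 CPM in Mel18 KO and 253, 236 and 302 CPM in WT. The genotypes overlapped, and the log2 fold change was 0.02 ± 0.10 (SE; edgeR adjusted p = 0.958). Its strongest promoter peak, at 183 bp (chr3:115714716-115715028), had 7.19, 10.2 and 8.49 CPM in Mel18 KO and 7.97, 9.41 and 11.0 CPM in WT. This was weaker than its strongest peak, 32299 bp downstream and outside annotated genes (chr3:115682394-115683118), with 19.0, 24.2 and 26.6 CPM in Mel18 KO and 20.1, 22.6 and 26.8 CPM in WT. In both peaks the genotypes overlapped.

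The S1pr1 peak with the smallest p, at 2981 bp in an exon, had 2.26, 1.78 and 2.32 CPM in Mel18 KO and 3.90, 2.31 and 5.52 CPM in WT. Its log2 fold change was -0.89 ± 0.34 (SE; edgeR adjusted p = 0.437), and -0.54 without WT library 3. The peak at 73469 bp, chosen after its values were seen, had 18.4, 10.3 and 12.8 CPM in Mel18 KO and 6.02, 8.81 and 18.5 CPM in WT. Its log2 fold change of 0.31 had an adjusted p of 0.874, and without WT library 3 it was 0.91 with an adjusted p of 0.0472. Of the 39 peaks, 17 were highest in that library and 6 lowest.

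S1pr2, a receptor that restrains cell migration, had a promoter peak at -32 bp (chr9:20976619-20977031) with 11.8, 10.1 and 8.81 CPM in Mel18 KO and 9.47, 13.4 and 9.40 CPM in WT. Its intronic peak at 2921 bp was as strong, with 12.1, 11.0 and 10.3 CPM in Mel18 KO and 7.62, 11.8 and 6.11 CPM in WT, and it had the smallest p of the gene (log2 fold change 0.39 ± 0.25 SE, edgeR adjusted p = 0.719). That value was 0.20 without WT library 3 and 0.68 without WT library 2. In both peaks the genotypes overlapped. The summed level was 24.2 ± 2.51 CPM in Mel18 KO and 20.3 ± 5.24 CPM in WT (SD, n = 3 each), with an edgeR adjusted p of 0.633.

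S1pr3, a receptor known in endothelium and in myeloid cells, was higher in all Mel18 KO libraries when its reads were summed. The level was 86.6, 90.1 and 98.3 CPM in Mel18 KO and 73.3, 80.1 and 51.6 CPM in WT. The genotypes did not overlap, but the log2 fold change of 0.43 ± 0.15 (SE) did not pass the test (edgeR adjusted p = 0.397). It was 0.25 (adjusted p = 0.103) without WT library 3. Of its 23 peaks, 22 had a log2 fold change above 0, against 51.8% of all peaks, with a median of 0.32 against 0.02. Only 1 of the 23 lay within 1 kb of the start. Of all peaks farther from a start, 57.2% were above 0, with a median of 0.06. The libraries of the genotypes did not overlap at 7 of the 23 S1pr3 peaks, all higher in Mel18 KO. This was so at 7.63% of all peaks and at 7583 of the 87967 farther ones.

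WT library 3 was the lowest of the 6 at 19 of the 23 S1pr3 peaks. Without it the median was 0.18, with 18 peaks above 0, and with trended normalization as well the median was 0.06, with 14 above 0. The macrophage, neutrophil and endothelial marker sums were also lowest in that library, at 163, 172 and 163 CPM. The endothelial sum was higher in all Mel18 KO libraries (195 to 197 CPM) than in all WT libraries (163 to 187 CPM), and the macrophage and neutrophil sums overlapped between genotypes. The part of these cells in the S1pr3 values was not tested.

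The promoter peak of S1pr3, at 143 bp (chr13:51408542-51408979), had 10.6, 8.51 and 11.1 CPM in Mel18 KO and 8.41, 7.78 and 6.86 CPM in WT. The genotypes did not overlap, and the log2 fold change was 0.39 ± 0.22 (SE; edgeR adjusted p = 0.646). The peak at -2464 bp (chr13:51406089-51406219) had the smallest p of the gene, with 2.78, 2.31 and 2.83 CPM in Mel18 KO and 1.33, 1.63 and 1.04 CPM in WT. Mel18 KO was higher with no overlap there, by 0.99 ± 0.33 (log2, SE; edgeR adjusted p = 0.328). The strongest peak beyond 1 kb, at -7245 bp, had 7.82, 8.71 and 11.1 CPM in Mel18 KO and 8.06, 9.84 and 8.57 CPM in WT, which overlapped. The 17 peaks upstream of 1 kb had a median of 0.34 and the 5 downstream 0.24. In RefSeq the upstream peaks, but for those at -36520 and -36331 bp, overlapped the long noncoding RNA gene models Gm32834 or Gm46414. The promoter peak overlapped both S1pr3 and Gm32834, and 2 downstream peaks lay within Shc3. The nearest start therefore does not settle which gene these peaks serve.

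S1pr4, a receptor largely restricted to blood cells, had a fitted value below 0 at every peak. Summed over its 6 peaks it had 34.9, 42.9 and 38.4 CPM in Mel18 KO and 53.0, 48.3 and 51.5 CPM in WT. The genotypes did not overlap. The log2 fold change was -0.40 ± 0.11 (SE) with an edgeR adjusted p of 0.368, and -0.39 with an adjusted p of 0.0517 without WT library 3. Over promoter peaks alone, fitted on the promoter reads of all genes, it was -0.06 (adjusted p = 0.932). All 6 peaks had a log2 fold change below 0, with a median of -0.26. This count of 6 below 0 was the same under every alternative setting tried at peak level.

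The S1pr4 peak with the smallest p, at -10346 bp (chr10:81510323-81510642), lay in an intron of Gna15, which encodes a G protein alpha subunit of blood cells. It had 5.16, 5.41 and 4.12 CPM in Mel18 KO and 11.3, 8.04 and 11.5 CPM in WT. Mel18 KO was lower with no overlap, by -1.07 ± 0.24 (log2, SE). The edgeR adjusted p was 0.111, the smallest among the members tested, and ranged from 0.0153 without WT library 3 to 0.876 with trended normalization, while the log2 fold change stayed between -1.25 and -0.95. The peak at -2692 bp, in the 3′ UTR of Gna15, had 10.7, 14.3 and 11.6 CPM in Mel18 KO and 16.2, 15.3 and 12.8 CPM in WT, which overlapped. The peak in the 5′ UTR of S1pr4, at 421 bp (chr10:81499652-81499779), had 5.80, 5.74 and 6.17 CPM in Mel18 KO and 7.79, 7.01 and 6.26 CPM in WT. There the genotypes were apart by a log2 fold change of -0.25 ± 0.22 (SE; edgeR adjusted p = 0.808). The 4 peaks upstream all lay within Gna15, so the table's nearest start is not a measure of which gene they serve. The T and NK marker sum was also lower in all Mel18 KO libraries (394 to 414 CPM, against 445 to 529 CPM in WT); its part in the S1pr4 values was not tested.

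S1pr5, the receptor that guides NK cells, was the weakest member. Its 3 peaks summed to 8.22, 7.76 and 6.50 CPM in Mel18 KO and 8.55, 6.84 and 6.92 CPM in WT, a log2 fold change of 0.01 ± 0.19 (SE; edgeR adjusted p = 0.988). At its start, the peak at -31 bp (chr9:21248423-21248525) counted 18, 13 and 19 reads in Mel18 KO and 14, 24 and 20 reads in WT. Scaled to library size these were 1.04, 0.858 and 1.22 CPM in Mel18 KO and 1.24, 2.05 and 1.49 CPM in WT, lower in Mel18 KO with no overlap (log2 fold change -0.61 ± 0.38 SE, edgeR adjusted p = 0.702). The same held at 5160 of the 21889 promoter peaks of all genes. Its strongest peak farther away, at -1842 bp, had 2.96, 3.10 and 2.25 CPM in Mel18 KO and 5.05, 1.54 and 4.70 CPM in WT. The log2 fold change of that peak was -0.44. The remaining peak, at 1874 bp and outside the naming rule, had 0.59 ± 0.39 (SE). The gene's peaks thus differed in direction, and none passed the test.

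**Figure D5:**
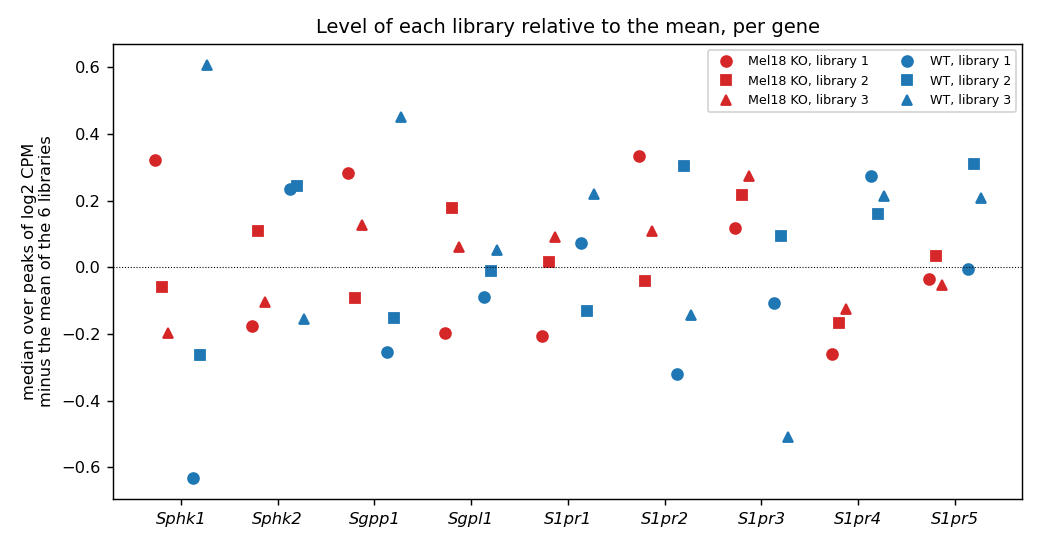
Level of each library relative to the mean of the 6 libraries (vertical axis, median over the peaks of a gene of centred log2 CPM), with Mel18 KO in red on the left and WT in blue on the right of each gene. WT library 3, the blue triangle, is the highest at Sphk1 (0.61), Sgpp1 (0.45) and S1pr1 (0.22) and the lowest at S1pr3 (-0.51). All 3 WT libraries are above all 3 Mel18 KO libraries at S1pr4.

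Genes around the pathway were read from a list of 66 symbols covering transport, sphingoid base and ceramide synthesis, ceramide turnover, lysophosphatidate relatives and receptor signalling, in which some genes appear under an older and a newer symbol. Of these symbols 56 had a peak, with 468 peaks in all. None of the 468 passed an adjusted p of 0.05. At an unadjusted p under 0.05, 21 were higher and 26 lower in Mel18 KO, against 3.10% higher and 5.97% lower of all peaks, and the median log2 fold change was 0.05 against 0.02 over all peaks.

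The 5 peaks with the smallest p all lay at start sites, and all had lower values in Mel18 KO. Among the 21889 promoter peaks of the table, an unadjusted p under 0.05 was reached by 4181 with lower and 244 with higher values in Mel18 KO. Sptssa, a small subunit of serine palmitoyltransferase, the enzyme that begins sphingolipid synthesis, had 72.9 ± 0.60 CPM in Mel18 KO and 96.2 ± 1.12 CPM in WT at 71 bp (SD, n = 3 each; edgeR adjusted p = 0.0606). Ormdl1, which holds that enzyme in check, had 65.9 ± 0.70 CPM in Mel18 KO and 89.3 ± 5.81 CPM in WT at -31 bp, in a peak shared with the start of Pms1 (SD, n = 3 each; edgeR adjusted p = 0.0627). Kdsr, which acts in the next step of synthesis, had a log2 fold change of -0.29 at 55 bp (edgeR adjusted p = 0.154). Rhoa and Gna13, which carry receptor signals to the cytoskeleton, had -0.32 and -0.46 (edgeR adjusted p = 0.0790 and 0.0804). Under trended normalization these 5 changes were -0.13 for Sptssa, -0.18 for Ormdl1, -0.24 for Gna13, -0.00074 for Kdsr and 0.01 for Rhoa, so the direction at Rhoa turned.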

How the data were processed

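ATAC-seq libraries of Lin- bone marrow cells from 3 Mel18 KO and 3 WT mice were compared. The members and gene lists were chosen with earlier results of these data known. Per the submitters' processing notes the genome build was mm10, and the tools listed there, without their roles, were MACS2 2.1.1, Bowtie2 1.2.2, Trimmomatic 0.40, MultiQC 0.11.5, Picard and FastQC. How reads were counted, whether they were shifted for Tn5 and whether duplicates were removed is not stated there, and each can change a count. The deposited table gives raw read counts per peak in whole numbers, with different totals per library. The authors' log2 fold changes and the authors' p-values and adjusted p-values, per the file headers, enter only the sentence on the deposited table. Its columns name a genotype and a library number, so libraries are known by group only; 12 further columns with values per library were left aside. The labels give separate mice, so libraries of a group are biological replicates. No pair of libraries of the same genotype agreed within sampling noise.

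Counts were tested with edgeR 4.0.16 (R 4.3.3; quasi-likelihood, robust, TMM normalization, filterByExpr), per peak and summed per nearest gene, with Benjamini-Hochberg adjustment over all peaks or all genes and 0.05 as the threshold; this test gave every adjusted p unless another is named. CPM use TMM library sizes, computed separately for peaks and for genes. SE is the size of the log2 fold change over the square root of F. Centred log2 CPM used a prior count of 2. Promoter peaks lay within 1 kb of a start. Distances run from the peak centre, and starts were converted to count from 1. Trended normalization used loess offsets (span 0.3). Alternatives with DESeq2 1.42.0 and limma 3.58.1, other scalings and filters, and leaving out each library were run. Per member, the text names the strongest promoter peak, the peak with the smallest p and the strongest peak beyond 1 kb, plus the neighbours of the Sgpp1 peak, its 3 most alike peaks (1 of them is not reported here) and the 5 smallest p of the wider list; exceptions are marked. RefSeq (GRCm38.p6) gave gene spans and promoter windows. The scripts were tested on simulated data.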

Additional observations from a re-analysis of the deposited data

How the results depend on the processing

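Without WT library 3, 4 of the 98 member peaks outside Sgpp1 and 3013 of all peaks passed the adjusted threshold. With all libraries, and with each of the other libraries left out, 0 passed; without WT library 2, 534 of all peaks did. With trended normalization and WT library 3 left out (chosen after seeing the data) 0 of the 98 peaks outside Sgpp1 and 114 of all peaks passed. DESeq2, edgeR's likelihood ratio test, DESeq2 size factors and limma-voom also passed 0 of these 98 peaks, while passing 3, 3, 468 and 279 of all peaks. With Sgpp1 left aside, no member gene passed in any gene-level setting. The median log2 fold change over member peaks was 0.03 with all libraries, 0.15 with library sizes alone, -0.021 with trended normalization, and -0.044 to 0.13 leaving out each library; within 1 kb of a start it was -0.14 and within 3 kb -0.10. Library sizes alone moved the median of all peaks to 0.14.

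Summed per gene, directions turned at small values. Sphk1 was up to 0.43 leaving out each library (lowest -0.39) and 0.43 with trended normalization and WT library 3 left out. Sgpp1 ranged from -0.042 to 0.22 leaving out each library and was -0.011 over promoter peaks. Sgpl1 ranged from -0.11 to 0.025 leaving out each library and was 0.027 with both changes. S1pr1 ranged from -0.050 to 0.13 leaving out each library and was -0.0086 over peaks within 50 kb. S1pr5 ranged from -0.061 to 0.12 leaving out each library and was -0.10 with trended normalization, -0.15 with both changes and -0.43 over promoter peaks. S1pr2 (0.075 to 0.49), S1pr3 (0.25 to 0.58), S1pr4 (-0.48 to -0.063) and Sphk2 (-0.24 to -0.061) kept their sign in all gene-level settings, with these ranges; the smallest values of S1pr4 and Sphk2 were those over promoter peaks. S1pr5 at -1842 bp (-0.44) ranged from -0.84 to -0.23 leaving out each library.

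Among named peaks, Sphk1 -331 and 14701 bp turned without WT library 3 (-0.43 to 0.13 and -0.70 to 0.20 leaving out each library) and with both changes (0.17 and 0.21). Sphk2 -1075 bp turned with library sizes alone (0.067) and limma-voom (0.048), and ranged from -0.37 to 0.11 leaving out each library. S1pr1 183 bp was 0.0088 with both changes. S1pr1 32299 bp was -0.018 with DESeq2 and with DESeq2 size factors and -0.021 with limma-voom, and ranged from -0.13 to 0.13 leaving out each library. S1pr2 -32 bp was 0.047 with library sizes alone and ranged from -0.19 to 0.091. S1pr3 -7245 bp ranged from -0.094 to 0.17. The cause of these turns was not tested; each of these log2 fold changes was at most 0.35 in size with all libraries. No paired analysis was possible because the table's library numbers do not link mice across genotypes. Depth limits weak peaks, where a WT library can hold 1 to 5 reads.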
